A study of Mus musculus with 27 samples.

Results

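Expression of the ATP-binding cassette (ABC) transporter genes was examined by RNA-Seq in distal ileal epithelium of 27 male C57BL/6 mice given sesame oil alone (vehicle) or TCDD (2,3,7,8-tetrachlorodibenzo-*p*-dioxin) by gavage at 30, 10, 3, 1, 0.3, 0.1, 0.03 or 0.01 µg/kg, with 3 mice in each of the 9 groups. All mice received their dose every 4 days over 28 days and were labelled as postnatal day 56, and by their labels vehicle mice were treated as the others but without TCDD. Mice of a group are listed in the order of their label numbers. Members were protein-coding genes whose symbol begins with *Abca* to *Abcg* and a number, other than *Abca1*, *Abcg5* and *Abcg8*. Of 46078 genes in the count tables, 47 had such a symbol and 38 reached a mean of 10 counts per mouse. The members with the fewest counts were *Abcb4* (mean of 10.1 counts), just over this limit, and *Abcd2* (19.7 counts). The genes nearest below the limit, *Abcg4* (3.85 counts) and *Abcb11* (2.19 counts), were well under it. The other genes under the limit were *Abca15*, *Abca17*, *Abca4*, *Abca6*, *Abcb5* and *Abcc12*, which averaged 0.04 to 1.59 counts, and *Abca16*, which had 0 counts in all mice.

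ABC proteins bind and hydrolyse ATP, and most members use it to move a substrate across a membrane. In the enterocyte, exporters of the brush border such as P-glycoprotein (*Abcb1a*, *Abcb1b*), MRP2 (*Abcc2*) and BCRP (*Abcg2*) return drugs, toxicants and conjugated metabolites to the lumen, while exporters such as MRP3 (*Abcc3*) face the blood. Other members carry lipids, serve mitochondria, peroxisomes or lysosomes, form potassium channels, or act in translation without crossing a membrane. TCDD activates the aryl hydrocarbon receptor (AhR), a transcription factor that binds the dioxin response element (DRE).

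Each mouse had 12.26 to 17.14 M reads on genes (median 14.14 M), and members held 0.22 to 0.475% of them. SD values below cover the 3 mice of a group. Standard errors (SE) and the intervals built on them come from a fit of all 27 mice in 9 groups. For slopes they come from the mice named with the slope. An SE is therefore not the spread of the 3 mice compared. Because the libraries hold a mixture of cells, fewer cells of a type and less RNA per cell cannot be told apart. AhR targets were used to check the labels of the higher doses. The summed level of *Cyp1a1*, *Cyp1b1*, *Ahrr*, *Tiparp* and *Nqo1* was 57.1 to 63.9 CPM (the read count scaled to library size) without TCDD. It was 1363 to 2539 CPM at 30 µg/kg, where 4 of the 5 were higher, 689 to 810 CPM at 10 µg/kg and 79.6 to 131 CPM at 3 µg/kg. At 1 µg/kg the sum, 47.4 to 65.0 CPM, overlapped with vehicle, although 2 of the 5 were higher. The sum was not taken at lower doses. All 10 enterocyte markers were detected, with a sum of 22300 to 26530 CPM in vehicle mice. A first and a second use of the library indexes were inferred from the index in the sample names, and no sequencing run or date is stated. By this, vehicle to 0.3 µg/kg and 1 mouse at 1 µg/kg had the first use (16 mice). The other 11 mice had the second. Vehicle therefore differed in index use from all mice at 3, 10 and 30 µg/kg. Outside 1 µg/kg the index use cannot be told apart from the dose. The first mouse at 30 µg/kg stood apart. Its counts differed from those of the other mice of its dose by a chi-square per degree of freedom of 50.8 and 83.1, against at most 25.1 in the 25 other pairs of mice of a dose. The RNA of circadian clock genes also differed with dose, and the values for both are given with the results they touch.

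Per kilobase of exon, which allows genes to be compared, *Abcb1a* was the most abundant member in vehicle mice at 132 ± 11.3 CPM per kb (SD, n = 3). *Abcg2* followed at 51.8 ± 1.56, *Abcd3*, a peroxisomal transporter of fatty acids and bile acid precursors, at 34.5 ± 6.21, and *Abcc3* at 26.2 ± 2.88 CPM per kb. These 4 levels did not overlap between neighbours in the order, whereas *Abcc3* overlapped with *Abcf1*, a translation factor (25.0 ± 0.765 CPM per kb). *Abcb10* was at 19.1 ± 1.89 CPM per kb, and *Abca7* (14.1 ± 0.848) and *Abcc2* (13.1 ± 3.42 CPM per kb) overlapped with each other. At 30 µg/kg *Abcb1a* was still first, at 343 ± 125 CPM per kb. *Abcc2* stood second at 66.6 ± 37.0 CPM per kb, from the ninth position in vehicle mice.

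**Figure D1:**
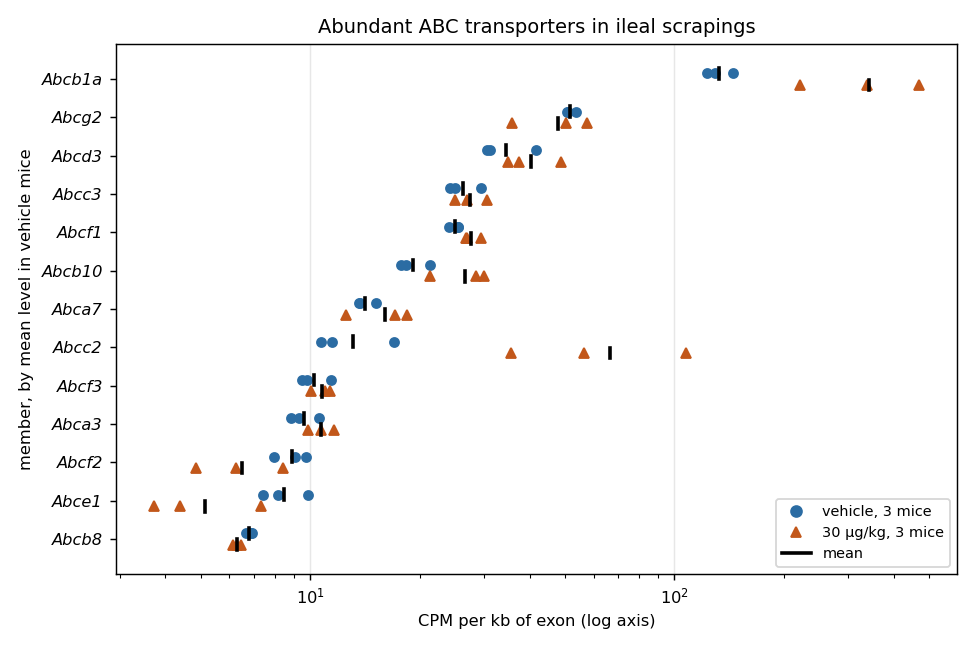
Level of 13 abundant members in CPM per kb of exon on a log axis, with 1 point per mouse and a bar at the mean of 3 mice; circles are vehicle and triangles 30 µg/kg. *Abcb1a* and *Abcc2* lie to the right of their vehicle points at 30 µg/kg, *Abce1* lies to the left, and most other members overlap.

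Expression of 6 of the 38 members (15.8%) differed from vehicle at 30 µg/kg, against 9.4% of all 16741 genes tested. *Abcc2*, *Abcc5*, *Abcb1a* and *Abca8b* were higher (10.5% of members, 5.42% of all genes) and *Abce1* and *Abca13* lower (5.26% of members, 3.98% of all genes). A member was called where edgeR's quasi-likelihood test gave a Benjamini-Hochberg adjusted p of at most 0.05 over all genes tested and the fold change was at least 1.5. At 1, 3 and 10 µg/kg the called members were *Abcc2* and *Abca8b*, both higher, or 5.26% of members, against 0.591%, 1.11% and 2.53% of all genes called and 0.4%, 0.645% and 1.76% called higher. From 0.01 to 0.3 µg/kg edgeR called 0 members and 0% of all genes at each dose, with 1, 1, 4 and 3 members at an unadjusted p under 0.05 in order of dose, against 4.18%, 3.53%, 6.19% and 7.45% of all genes. The median log2 fold change of members was 0.16 at 30 µg/kg against 0.02 for all genes, and 65.8% of members against 51.8% of all genes were above 0. The 3 treated mice did not overlap with the 3 vehicle mice for 12 members at 30 µg/kg (31.6%, against 27.1% of all genes), with 9 higher (13.7% of all genes) and 3 lower (13.3% of all genes). Without the fold limit 10 members (26.3%) passed at 30 µg/kg, against 17.8% of all genes. Without the first mouse at 30 µg/kg 8 members were called there, the same 6 with *Abcb10* and *Abcf2*, against 14.7% of all genes. The log2 fold change was then 2.62 for *Abcc2*, 2.04 for *Abcc5*, 1.58 for *Abcb1a*, 1.41 for *Abca8b*, -1.10 for *Abce1* and -1.87 for *Abca13*.

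**Figure D2:**
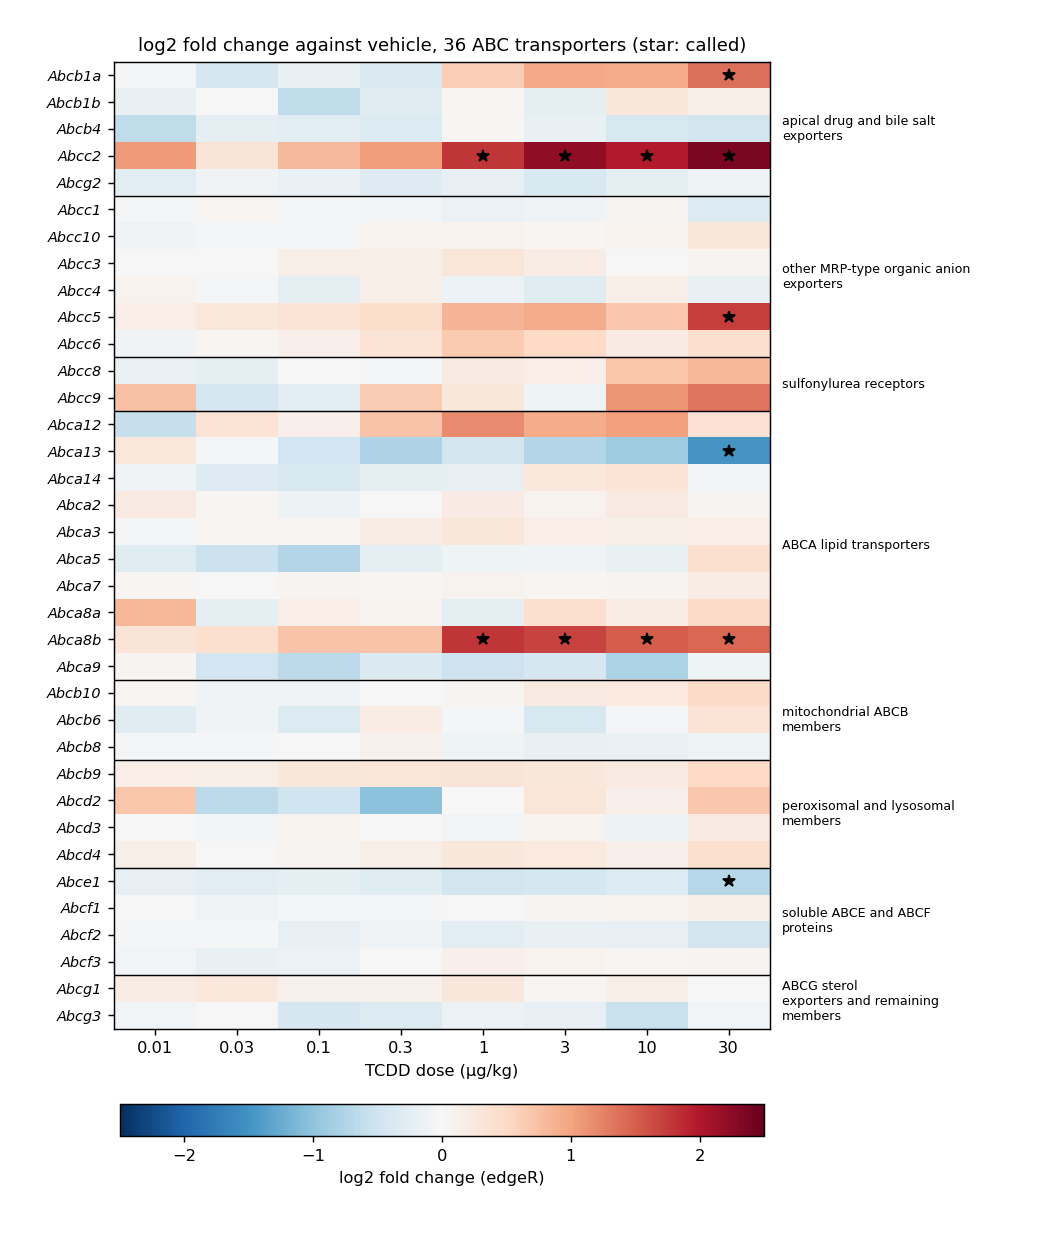
Log2 fold change against vehicle (color, edgeR estimate from 3 against 3 mice) of 36 members in rows, grouped by role, at the 8 doses in columns; a star marks a called member. *Abcc2* and *Abca8b* carry stars from 1 µg/kg upwards, and *Abcb1a*, *Abcc5*, *Abce1* and *Abca13* at 30 µg/kg.

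RefSeq promoter windows (GRCm38.p6, 250 bases before to 50 bases after a gene start) were matched by symbol for 28 members, which had 34 windows. Among the others, *Abcb8*, *Abcc1*, *Abcc3*, *Abcc6*, *Abcc8*, *Abcd2*, *Abcd4* and *Abcg1* had no matching entry. The core of the DRE, GCGTG, searched on both strands, was in 12 of the 34 windows (35.3%), against 32.4% of the 32851 windows in the table. The E-box CACGTG, which is its own reverse complement and the site of CLOCK and BMAL1, was in 4 of the 34 (11.8%) against 7.15%. A match is a description of the letters and not a binding site. None of the windows of *Abcb1a*, *Abcc2*, *Abcc5* and *Abca8b*, the members called higher at 30 µg/kg, held the core, and the *Abca8b* window held 1 E-box just after the start. Their sequence before the annotated start is printed to show what lies there in the genes that rose; which start is used in ileum was not tested. For *Abcc2* it stops at the GENCODE start, 116 bases before the RefSeq start, and for *Abcb1a* the RefSeq start lies 92.99 kb before the GENCODE start. The stretches are chr5:8566841-8567090 (plus strand), chr19:43782058-43782191 (plus), chr16:20426395-20426644 (minus) and chr11:109995846-109996095 (minus).
Abcb1a: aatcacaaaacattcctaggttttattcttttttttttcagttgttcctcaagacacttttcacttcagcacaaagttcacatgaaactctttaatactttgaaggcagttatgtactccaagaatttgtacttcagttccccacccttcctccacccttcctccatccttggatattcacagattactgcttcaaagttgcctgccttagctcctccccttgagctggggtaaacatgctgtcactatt
Abcc2: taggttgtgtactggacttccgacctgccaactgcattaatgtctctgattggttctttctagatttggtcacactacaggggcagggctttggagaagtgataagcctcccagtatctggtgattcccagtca
Abcc5: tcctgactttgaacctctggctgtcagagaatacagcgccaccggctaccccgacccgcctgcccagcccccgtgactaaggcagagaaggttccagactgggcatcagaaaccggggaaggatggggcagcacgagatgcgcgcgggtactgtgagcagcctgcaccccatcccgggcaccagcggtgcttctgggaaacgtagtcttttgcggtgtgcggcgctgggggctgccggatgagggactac
Abca8b: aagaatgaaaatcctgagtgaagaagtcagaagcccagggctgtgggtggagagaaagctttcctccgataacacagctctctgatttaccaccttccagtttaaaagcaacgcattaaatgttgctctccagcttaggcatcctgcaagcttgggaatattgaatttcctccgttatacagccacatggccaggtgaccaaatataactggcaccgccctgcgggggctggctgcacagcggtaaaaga
The members called lower each held 1 core, on the strand opposite to the gene, in the transcribed part of the window. It began 45 bases after the start of *Abce1* and 30 bases after that of *Abca13*. The 30 bases that hold it are chr8:79711691-79711720 (minus strand) and chr11:9191957-9191986 (plus), with the core, read as CACGC, in capitals.
Abce1: ggcgccgactctgcgctctgtcgcgCACGC
Abca13: gcagccggcatggggCACGCtgggcgccag

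Among exporters of the brush border and bile canaliculus, *Abcc2* and *Abcb1a* rose at 30 µg/kg while *Abcg2*, *Abcb1b* and *Abcb4* did not pass the test. *Abcc2* (ENSMUSG00000025194, chromosome 19, 43782192 to 43840740, plus strand) encodes MRP2, which exports glutathione, glucuronide and sulfate conjugates. Its level was 91.4, 145 and 98.2 CPM in the vehicle mice, 481, 509 and 560 CPM at 3 µg/kg, and 304, 918 and 481 CPM at 30 µg/kg. All mice from 1 µg/kg upwards lay above all vehicle mice, and the mice at 30 µg/kg spread around those at 3 µg/kg. *Abcc2* increased 3.45-fold at 1 µg/kg (log2 fold change 1.79 ± 0.35 SE, edgeR adjusted p = 0.0123), 4.63-fold at 3 µg/kg (2.21 ± 0.35, adjusted p = 0.0014), 3.94-fold at 10 µg/kg (1.98 ± 0.35, adjusted p = 0.00156) and 5.09-fold at 30 µg/kg (2.35 ± 0.35, adjusted p = 8.13e-05). At 0.01, 0.1 and 0.3 µg/kg its log2 fold change was 1.07, 0.81 and 1.04, not past the adjusted threshold. The highest of the 15 mice at 0.3 µg/kg or less, at 373 CPM, was the third mouse at 0.01 µg/kg.

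*Abcb1a* (ENSMUSG00000040584, chromosome 5, 8660077 to 8748575, plus strand) encodes a P-glycoprotein, which pumps many hydrophobic drugs out of cells. It measured 674, 793 and 707 CPM in the vehicle mice, 1209, 2573 and 1851 CPM at 30 µg/kg, and 943, 1232 and 1963 CPM at 10 µg/kg. All mice at 1 µg/kg or more were above the vehicle mice, and the 9 mice from 0.03 to 0.3 µg/kg, at 419 to 746 CPM, lay within or under the vehicle range. It increased 2.59-fold at 30 µg/kg (log2 fold change 1.37 ± 0.28, edgeR adjusted p = 0.0014). At 1, 3 and 10 µg/kg its log2 fold change was 0.61 ± 0.27, 0.95 ± 0.27 and 0.93 ± 0.27, with edgeR adjusted p of 0.311, 0.0817 and 0.0576. It was called at 10 µg/kg with DESeq2, without a filter on low counts and without the first mouse of that dose, at 3 µg/kg without a filter and from the 6 mice alone, and at 1 µg/kg from the 6 mice alone. *Abcb1b*, the other P-glycoprotein gene, was present at 1.73 to 1.97 CPM under vehicle and 1.79 to 2.28 CPM at 30 µg/kg, a log2 fold change of 0.15 ± 0.28 (edgeR adjusted p = 0.76). Of the 50-base stretches of *Abcb1a* transcripts, 22.5% also occur in another gene, chiefly *Abcb1b* or *Abcb4*, and of those of *Abcb1b* 12.8%, so the split of reads between them is uncertain.

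*Abcg2*, the BCRP exporter of sulfate conjugates, urate and many drugs, measured 413, 437 and 416 CPM under vehicle and 291, 409 and 468 CPM at 30 µg/kg. The treated mice fell on both sides of the vehicle mice, and the log2 fold change was -0.11 ± 0.14 (edgeR adjusted p = 0.627), with a 95% interval of -0.39 to 0.16. *Abcb4*, the phosphatidylcholine translocator of bile, ranged from 0.484 to 1.2 CPM under vehicle and from 0.215 to 0.928 CPM at 30 µg/kg, and the groups overlapped. *Abcb11*, the bile salt export pump of the hepatocyte, had 0 to 10 counts per mouse and was not a member.

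**Figure D3:**
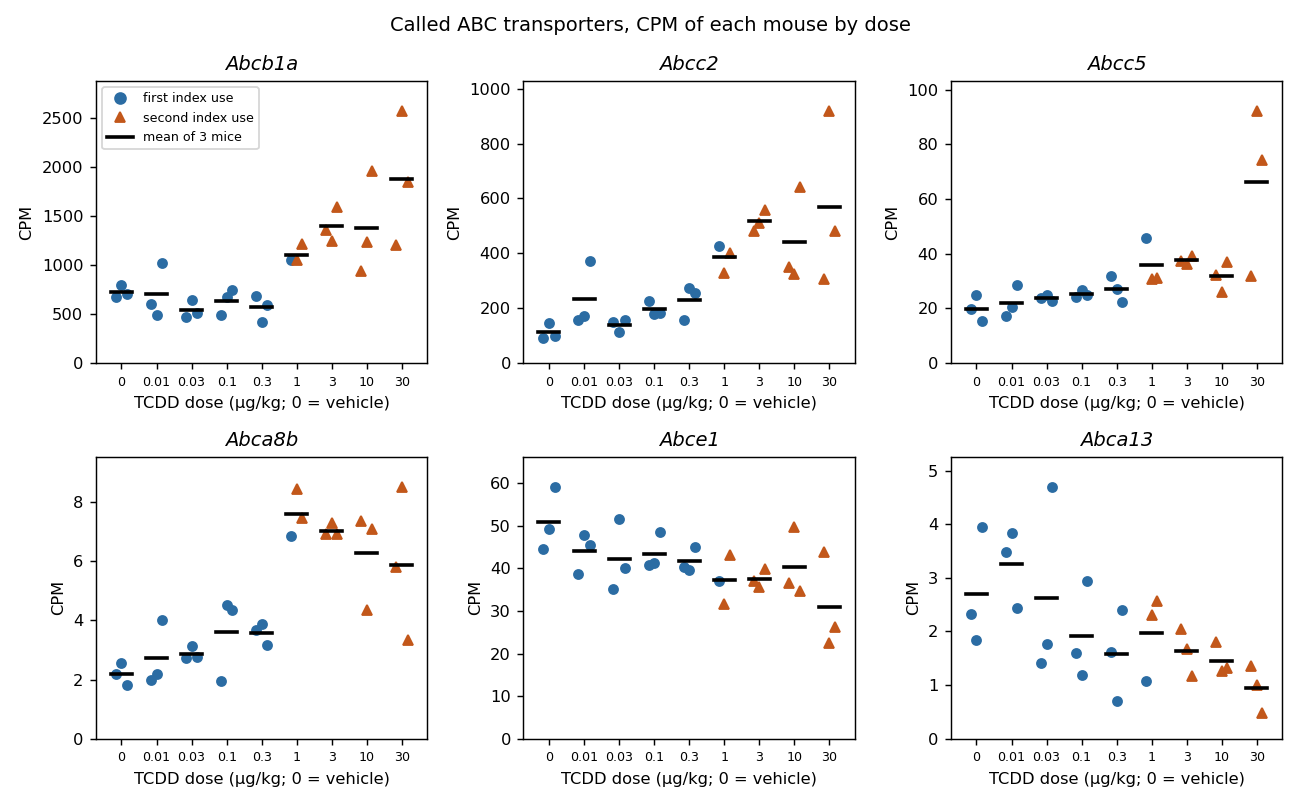
CPM of each mouse on a linear axis from 0, by TCDD dose, for the 6 called members, with a bar at the mean of 3 mice; circles are libraries of the first index use and triangles of the second. *Abcb1a*, *Abcc2* and *Abca8b* step up between 0.3 and 1 µg/kg, and *Abcc5* has its 2 highest mice at 30 µg/kg.

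Of the 6 other organic anion exporters of the MRP type, 1 rose at 30 µg/kg. *Abcc5* (ENSMUSG00000022822, chromosome 16, 20331303 to 20426394, minus strand) encodes MRP5, which exports cyclic nucleotides and other organic anions. It measured 19.6, 24.7 and 15.2 CPM in the vehicle mice, 37.4, 36.2 and 39.0 CPM at 3 µg/kg, and 31.7, 92.1 and 74.3 CPM at 30 µg/kg. Every mouse at 1 µg/kg or more was above the vehicle mice, but the first mouse at 30 µg/kg lay within the range of the mice at 1 to 10 µg/kg. The increase at 30 µg/kg was 3.32-fold (log2 fold change 1.73 ± 0.26, edgeR adjusted p = 9.51e-05). At 1, 3 and 10 µg/kg the log2 fold change was 0.85, 0.92 and 0.67, with edgeR adjusted p of 0.128, 0.0797 and 0.173. It was called at 1 and 3 µg/kg with DESeq2 and without a filter on low counts, and at 3 µg/kg from the 6 mice alone. Between 30 and 3 µg/kg, which share the second index use, it differed by 0.81 ± 0.25 on the log2 scale (edgeR adjusted p = 0.12).

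The remaining MRP genes stayed within 1.5-fold of vehicle at 30 µg/kg. *Abcc3*, which exports bile acids and glucuronides to the blood, measured 143, 168 and 138 CPM in vehicle and 154, 142 and 174 CPM at 30 µg/kg, where the groups overlapped (log2 fold change 0.07 ± 0.10, edgeR adjusted p = 0.696). *Abcc4*, the MRP4 exporter of cyclic nucleotides and bile acids, was at 6.38 to 8.24 CPM under vehicle and 6.02 to 7.02 CPM at 30 µg/kg. *Abcc1*, which encodes MRP1, was at 19.0 to 23.1 CPM and 14.8 to 19.1 CPM in the same groups, with a log2 fold change of -0.33 ± 0.13 (edgeR adjusted p = 0.0778). The estimates for *Abcc6* and *Abcc10* were 0.42 and 0.28, also not called. Neither sulfonylurea receptor gene, *Abcc8* or *Abcc9*, which encode regulatory subunits of ATP-sensitive potassium channels, was called by edgeR. *Abcc9* had the largest estimate of the members not called (log2 fold change 1.33 ± 0.50, edgeR adjusted p = 0.0679), from 3.52, 0.734 and 2.49 CPM in vehicle mice to 6.73, 6.34 and 3.99 CPM at 30 µg/kg. The channel subunit is typical of smooth muscle, whose 7 markers summed to 316, 236 and 215 CPM under vehicle and 631, 257 and 237 CPM at 30 µg/kg. The median log2 fold change of these markers was 1.17 at 30 µg/kg, with 0 of the 7 called. Their part in the *Abcc9* values was not tested.

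Of the 10 ABCA members, which carry lipids, *Abca8b* rose and *Abca13* fell at 30 µg/kg. *Abca8b* (ENSMUSG00000020620, chromosome 11, 109932190 to 109995845, minus strand) measured 2.18, 2.57 and 1.80 CPM in the vehicle mice, 6.86, 8.45 and 7.46 CPM at 1 µg/kg, and 5.80, 8.51 and 3.34 CPM at 30 µg/kg. All 12 mice at 1 µg/kg or more were above the vehicle mice, and the level at 30 µg/kg was no higher than at 1 µg/kg. The log2 fold change was 1.79 ± 0.31 at 1 µg/kg (3.47-fold, edgeR adjusted p = 0.00511), 1.69 at 3 µg/kg (adjusted p = 0.00509), 1.52 at 10 µg/kg (adjusted p = 0.00692) and 1.43 ± 0.32 at 30 µg/kg (2.7-fold, adjusted p = 0.00322). *Abca8a*, the neighbouring paralogue with which 2.45% of its 50-base stretches are shared at most, had a log2 fold change of 0.49 ± 0.45 at 30 µg/kg (edgeR adjusted p = 0.495).

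*Abca13* (ENSMUSG00000004668, chromosome 11, 9191942 to 9684259, plus strand) measured 2.32, 1.83 and 3.95 CPM under vehicle and 1.36, 1.01 and 0.488 CPM at 30 µg/kg. The groups did not overlap at these low levels of 6 to 68 counts per mouse over all groups, although mice at 0.3 µg/kg already spread from 0.697 to 2.41 CPM. It fell by 1.48 on the log2 scale at 30 µg/kg (SE 0.51, edgeR adjusted p = 0.045), and the call was lost without the first or the third vehicle mouse (adjusted p = 0.0659 and 0.226) and without the second or the third mouse at 30 µg/kg (adjusted p = 0.123 and 0.17). *Abca7*, a phospholipid transporter and the most abundant ABCA member, was at 91.9 to 102 CPM under vehicle and 84.5 to 124 CPM at 30 µg/kg (log2 fold change 0.18 ± 0.11, edgeR adjusted p = 0.266). The other 7 ABCA members had log2 fold changes from -0.11 (*Abca9*) to 0.49 (*Abca8a*).

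None of the 4 mitochondrial ABCB members was called by edgeR at 30 µg/kg. *Abcb10*, which acts in haem synthesis of mitochondria, passed the p threshold without reaching 1.5-fold, with 76.5, 91.6 and 78.8 CPM under vehicle and 91.6, 129 and 123 CPM at 30 µg/kg. The first mouse at 30 µg/kg equalled the highest vehicle mouse, and the difference was 1.39-fold (log2 fold change 0.48 ± 0.11, edgeR adjusted p = 0.00359). *Abcb6* shares 50% of its 50-base stretches with the overlapping model *Gm29253*, and its values are uncertain.

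The 5 members of peroxisomes and lysosomes gave no call at 30 µg/kg. *Abcb9*, the lysosomal peptide transporter, measured 6.12, 4.91 and 5.81 CPM in vehicle mice and 6.80, 8.74 and 8.39 CPM at the highest dose, a 1.42-fold difference with no overlap (edgeR adjusted p = 0.0284). *Abcd4*, which moves cobalamin out of lysosomes, measured 19.5, 23.5 and 19.3 CPM and then 24.8, 30.3 and 27.5 CPM, a 1.33-fold difference with no overlap (edgeR adjusted p = 0.0309). Both passed the p threshold and not the fold limit. The peroxisomal *Abcd3* was at 201 to 274 CPM under vehicle and 230 to 322 CPM at 30 µg/kg (log2 fold change 0.23 ± 0.14, edgeR adjusted p = 0.278).

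Of the 4 soluble ABCE and ABCF proteins, *Abce1* fell at 30 µg/kg. *Abce1* (ENSMUSG00000058355, chromosome 8, 79683462 to 79711740, minus strand) encodes a factor that splits ribosomes after termination. It measured 44.6, 49.1 and 59.1 CPM under vehicle and 43.9, 22.4 and 26.3 CPM at 30 µg/kg, where the first mouse lay just under the lowest vehicle mouse. It fell 1.65-fold (log2 fold change -0.72 ± 0.19, edgeR adjusted p = 0.0105), and the log2 fold change was between -0.21 and -0.45 at every lower dose, with no call. Without the third vehicle mouse or the second or the third mouse at 30 µg/kg the adjusted p was 0.0692, 0.0905 and 0.0596. *Abcf2*, a relative of translation factors, measured 23.3, 20.4 and 25.0 CPM under vehicle and 21.6, 12.5 and 16.0 CPM at 30 µg/kg, 1.37-fold lower with overlap (edgeR adjusted p = 0.0253), past the p threshold and not the fold limit. *Abcf1*, at 106 to 112 CPM under vehicle and 118 to 130 CPM at 30 µg/kg, did not pass the test (log2 fold change 0.15 ± 0.07, edgeR adjusted p = 0.162), and *Abcf3* had a log2 fold change of 0.08. The remaining members *Abcg1*, a cholesterol exporter, and *Abcg3* had log2 fold changes of 0.00 and -0.06.

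Over all 27 mice, 17 members (44.7%) had a slope with dose rank at an edgeR adjusted p of at most 0.05, against 26.2% of all genes, with 14 rising (13.4% of all genes) and 3, *Abca13*, *Abce1* and *Abcf2*, falling (12.8% of all genes). *Abcc2* rose by 0.27 ± 0.04, *Abca8b* by 0.22 ± 0.03, *Abcb1a* by 0.19 ± 0.03 and *Abcc5* by 0.18 ± 0.03 log2 units per step of dose. Within the 16 mice of the first index use edgeR called 0 members and 0.144% of all genes, and at an unadjusted p under 0.05 were 10 members and 12.8% of all genes. Within the 11 mice of the second it called 0 members and 1.44% of all genes, and at an unadjusted p under 0.05 were 8 members and 13.3% of all genes. Of the 17 members with a slope over all mice, 10 kept its sign within both index uses. Of all 38 members, 19 had a slope of the same sign in both. The *Abcc5* slope was 0.16 ± 0.04 within the first and 0.33 ± 0.11 within the second index use, and that of *Abcc2* was 0.23 ± 0.07 and 0.15 ± 0.12. For *Abcb1a* the slope within the first index use was 0.00 ± 0.05 and within the second 0.21 ± 0.09. That of *Abca8b* was 0.24 ± 0.06 within the first and -0.15 ± 0.09 within the second.

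Among the 9 groups, 5 members differed by edgeR's overall test at an adjusted p of at most 0.05 (13.2%, against 9.53% of all genes): *Abcb1a*, *Abcc2*, *Abcc5*, *Abca8b* and *Abcb10*. Between 30 and 3 µg/kg, edgeR and DESeq2 each called 0 members, against 0.89% and 1.49% of all genes, and 5 members and 13.4% of all genes were at an unadjusted edgeR p under 0.05. The 1 mouse at 1 µg/kg with the first index use had 1055 CPM of *Abcb1a*, 426 CPM of *Abcc2*, 45.6 CPM of *Abcc5* and 6.86 CPM of *Abca8b*. Each of these values was above those of all 15 other mice of the first index use. These members were listed because they were called higher, and the calls of *Abcc2* and *Abca8b* at 1 µg/kg include this mouse. Of the members called lower at 30 µg/kg, it had 37.1 CPM of *Abce1* and 1.07 CPM of *Abca13*. For each of them, 1 of the 15 other mice was lower still. The share of all genes for which this mouse lay above the others is not given here. With index use as a covariate, which rests on the 3 mice at 1 µg/kg, 3 members were called at 30 µg/kg (*Abcc2*, *Abcc5* and *Abcb9*), against 2.88% of all genes, and 0 at 1, 3 or 10 µg/kg, where 0.185%, 0.0358% and 0.287% of all genes were called.

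Clock gene RNA and the members that rose both differed between vehicle and 30 µg/kg. Of 11 clock genes, 7 were higher and 3 lower at 30 µg/kg, against 5.42% and 3.98% of all genes. Their first principal component (78.8% of their variance) ranged from -3.65 to -3.20 in vehicle mice and from 3.84 to 4.31 at 30 µg/kg. In the mice given 1 µg/kg the component was lower than in those given 30 µg/kg, with values of 0.45 to 2.42. The means of *Abcb1a* (1106 against 1878 CPM), *Abcc2* (385 against 568 CPM) and *Abcc5* (35.8 against 66.1 CPM) were lower there too. Mean *Abca8b* was higher (7.59 against 5.88 CPM), but its mice at the highest dose spread from 3.34 to 8.51 CPM. The third mouse at 0.01 µg/kg, with the highest *Abcc2* of the low doses, had a component of 1.99, beside -3.46 and -2.88 in the other mice of its dose. Its *Abcb1a* was 1023 CPM, beside 606 and 492 CPM, and its *Abcc2* 373 CPM, beside 156 and 171 CPM. With the component as a covariate edgeR called 0 members at 1, 3, 10 and 30 µg/kg, and 0%, 0%, 0.0179% and 0.0777% of all genes, so that the 0 says nothing particular of the members. At 30 µg/kg the log2 fold change was then 0.30 ± 0.55 for *Abcc2*, 0.33 ± 0.52 for *Abcb1a*, 0.74 ± 0.52 for *Abcc5*, 0.24 ± 0.62 for *Abca8b*, -0.18 ± 0.96 for *Abca13* and -0.69 ± 0.40 for *Abce1*. Dose and the component moved together in nearly all mice, and the 2 cannot be told apart here.

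**Figure D4:**
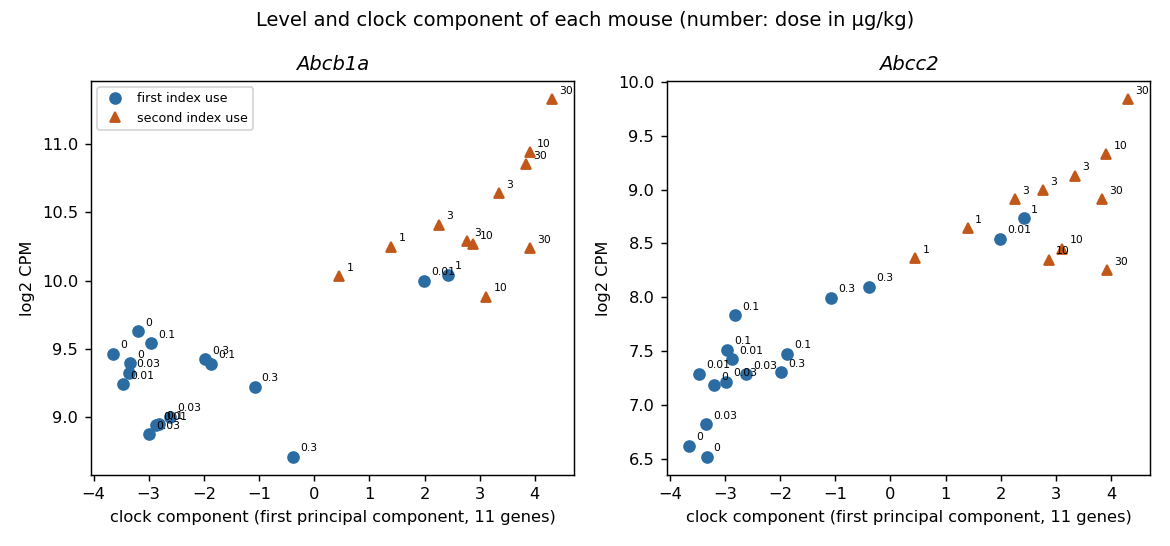
Log2 CPM of *Abcb1a* and *Abcc2* in each of the 27 mice against the clock component, the first principal component of 11 clock genes, with the dose in µg/kg beside each point; circles are libraries of the first index use and triangles of the second. The third mouse at 0.01 µg/kg lies at a component of 1.99 among mice given 1 to 3 µg/kg.

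**Figure D5:**
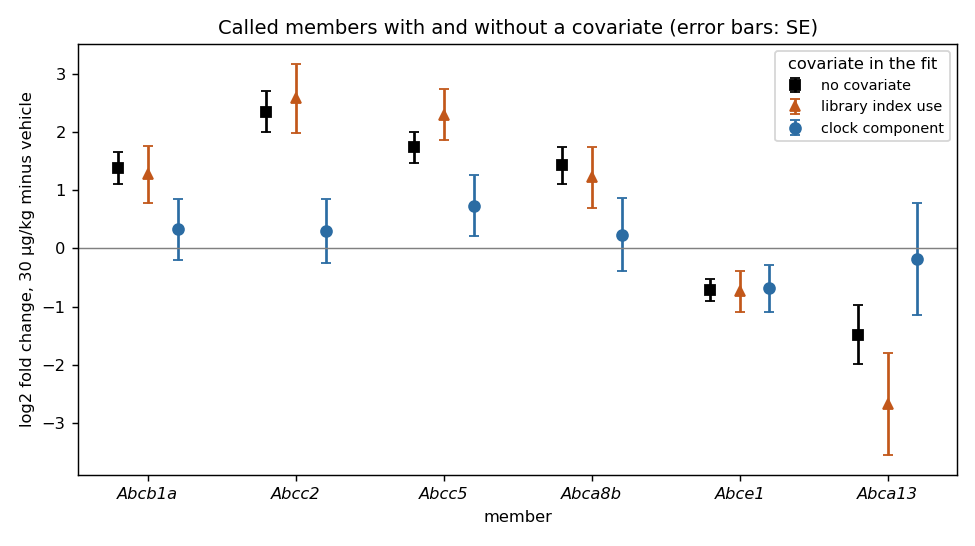
Log2 fold change at 30 µg/kg minus vehicle of the 6 called members (edgeR estimate, bars are SE) with no covariate (squares), with library index use (triangles) and with the clock component (circles) in the fit. With the clock component all 6 moved toward 0, *Abce1* from -0.72 to -0.69.

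Cell type markers differed among the mice at 30 µg/kg. The 10 enterocyte markers summed to 21238, 47787 and 40219 CPM in the first, the second and the third mouse, and *Abcc2*, *Abcb1a* and *Abcc5* were likewise lowest in the first and highest in the second, while *Abca8b* was highest in the second and lowest in the third. The 7 stem and cycling cell markers summed to 483, 221 and 277 CPM, in the same order as *Abce1*, against 428 to 610 CPM in vehicle mice. *Abca13*, at 1.36, 1.01 and 0.488 CPM, followed neither order. The share of all genes with these orders was not taken. At 30 µg/kg, edgeR called 3 enterocyte markers higher and 1 lower, 3 stem and cycling cell markers lower, 6 of 8 enteroendocrine markers higher, 1 goblet cell and 1 endothelial marker higher, and 1 B and plasma cell and 1 of 2 tested colonic markers lower. Of the Paneth cell, fibroblast, T lymphocyte and macrophage lists, 0 markers were called. Among all genes, 5.42% were called higher and 3.98% lower at this dose. The part of the marked cell types in the members' values was not tested.

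Related genes were taken from lists. Of 6 superfamily members without a symbol of the rule or left out of it, *Tap1*, which loads peptides for antigen presentation, was lower at 30 µg/kg (log2 fold change -0.81 ± 0.14, edgeR adjusted p = 0.000278), and *Abca1*, *Abcg5*, *Abcg8*, *Cftr* and *Tap2* were not called. Of 25 SLC transporters of drugs and organic ions, 5 were higher and 1 lower at 30 µg/kg. Of all genes, 5.42% were called higher and 3.98% lower at that dose. The SLC genes that were higher included the apical bile acid importer *Slc10a2* (1.68-fold, edgeR adjusted p = 0.0339) and the peptide importer *Slc15a1* (3.36-fold, adjusted p = 0.000878). The organic cation exporter *Slc47a1* was also higher (3.55-fold, edgeR adjusted p = 0.000489), and *Slc28a3*, a nucleoside importer, was lower (log2 fold change -0.69 ± 0.19). Of 19 tested nuclear receptors and sensors that act on transporter genes, 4 were higher: *Nfe2l2* (1.51-fold), *Nr1i3* (2.93-fold), *Ppara* (1.88-fold) and *Pparg* (2.08-fold). *Nr1i2*, which encodes the xenobiotic sensor PXR, was at 102 ± 2.08 CPM under vehicle and 116 ± 17.0 CPM at 30 µg/kg and was not called.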

How the data were processed

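RNA from distal ileal scrapings of 27 mice was sequenced by the authors. Per the labels and methods, mice were separate animals, co-housed, with cage not given in the sources used here. The authors checked reads with FastQC 0.11.3, trimmed them with Trimmomatic 0.33, aligned them to GRCm38 with TopHat2 2.1.0 and used SAMtools 1.2.0. The submitters' processing notes also name HTSeq 0.6.1 and DESeq, without options or strand setting, and the deposited files hold whole-number read counts per Ensembl gene, 1 table per mouse, not normalized. Rows that name no gene were left out of library sizes; reads with no feature were 44.48 to 49.52% of the uniquely aligned reads. How reads shared by related or overlapping genes were counted is not given in the sources used here.

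Symbols, coordinates and exon lengths came from GENCODE vM21 (GRCm38), joined by Ensembl identifier. Counts were filtered with filterByExpr (minimum count 10, total 15), scaled by TMM and tested with edgeR 4.0.16 in R 4.3.3, in 1 quasi-likelihood fit of 9 groups. Adjustment was Benjamini-Hochberg over the 16741 genes tested, and the limits for a call were 0.05 for the adjusted p and 1.5 for the fold change in either direction. The study's own probability criterion could not be recomputed and the adjusted p took its place. SE was taken from the estimate and its F value (estimate over root F), and 95% intervals are the estimate with its SE on a normal scale. CPM used effective library sizes, and log2 CPM a prior count of 2. Single members compared by an exact permutation test cannot reach a p under 0.1 with 3 against 3 mice. On simulated counts for 30 µg/kg against vehicle (16483 genes), the procedure recovered 64 of 100 genes changed 2-fold and 94 of 100 changed 4-fold, with 5 false calls. The simulated counts held no shift by index use or clock and no mouse set apart, so these rates do not cover such features of the data. A chi-square of the counts put 0 of 27 same-dose pairs of libraries within sampling noise; those of the first mouse at 30 µg/kg were the farthest apart. Depth sets counting error only, which for members of under 5 CPM adds to the spread between mice.

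Members, role lists, clock genes and markers were chosen with earlier results of these data known. Genes named with values were members called at any dose, the drug and bile salt exporters, the 10 most abundant per kb in vehicle mice and the 3 others with the lowest p at 30 µg/kg; other members named were chosen after their values were seen. The single results of 2 members are not reported here; they stay in the counts. Alternatives were DESeq2 1.42.0, other scalings and filters, no fold limit, the mice compared alone, index use or the clock component as a covariate, trend subsets, log10 dose and leaving out each mouse. Python 3.11.15, pandas 2.3.3 and matplotlib 3.10.9 were used.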

Additional observations from a re-analysis of the deposited data

How the results depend on the processing

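At 30 µg/kg 6 members were called, 7 with DESeq2 (adding *Abcc9*), 6 with upper-quartile factors or library size only, 7 without a filter on low counts and 5 with at least 10 counts in every mouse. The count was 10 without the fold limit, 3 from the 6 mice alone, 3 with index use and 0 with the clock component as a covariate, and 4 to 8 with 1 mouse left out, with *Abcb1a*, *Abcc2*, *Abcc5* and *Abca8b* called in each of these 6 fits. Of all genes, 9.4% were called at 30 µg/kg, 9.43% with DESeq2, 9.19% with upper-quartile factors and 9.87% with library size only. The share was 5.15% without a filter, 10.3% with at least 10 counts in every mouse and 17.8% without the fold limit. It was 4.37% from the 6 mice alone, 2.88% with index use, 0.0777% with the clock component and 5.15 to 14.7% with 1 mouse left out. The 2 members at 10 µg/kg became 3 with DESeq2 or without a filter (adding *Abcb1a*), 0 with either covariate and 1 to 3 with 1 mouse left out. Of all genes, 2.53% were called at 10 µg/kg, 3.14% with DESeq2, 1.7% without a filter and 1.22 to 2.64% with 1 mouse left out. The 2 members at 3 µg/kg became 4 without a filter, 5 from the 6 mice alone (both adding *Abcb1a* and *Abcc5*), 0 with either covariate and 1 to 2 with 1 mouse left out. The share of all genes at 3 µg/kg was 1.11%, with 1.0% without a filter, 2.25% from the 6 mice alone and 0.393 to 1.32% with 1 mouse left out. The 2 members at 1 µg/kg became 4 with DESeq2, 0 with either covariate and 0 to 2 with 1 mouse left out. Of all genes, 0.591% were called at 1 µg/kg, 1.0% with DESeq2 and 0.0703 to 0.626% with 1 mouse left out. Without the third vehicle mouse the called members were 0 at 1 µg/kg and 1 at 3 and 10 µg/kg, against 0.0703%, 0.422% and 1.27% of all genes. Shares with either covariate are given above. Between 30 and 3 µg/kg the 0 members became 1 (*Abcc5*) without a filter and 0 to 2 with 1 mouse left out (*Abcc5* and *Abce1* without the first mouse at 30 µg/kg). Of all genes, 0.837% were called there without a filter and 0.275 to 4.07% with 1 mouse left out, the highest without that first mouse. The 5 members that differed among groups became 8 with DESeq2 and without a filter, and 0 with either covariate. The 17 members with a slope became 11 with library size only (7 rising, 4 falling), 13 with log10 dose over 24 treated mice, and 0 within either index use. Except for the slope within either index use, the shares of all genes under the alternatives of these tests are not given here. The cause of these changes was not tested.

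Signs turned for 5 members that were not called. With library size only, which moved the median of all genes by -0.13, *Abcc3* was -0.063. With index use, *Abcb1b* was -0.25, *Abcc4* 0.11 and *Abcb4* 0.14. With the clock component, *Abcb1b* was -0.65 and *Abcg2* 0.38. With 1 mouse left out *Abcc3* lay between -0.015 and 0.135 and *Abcg2* between -0.269 and 0.026 (all log2 fold changes at 30 µg/kg). No paired analysis was possible because the mouse numbers in the labels are unique and the groups share no replicate number.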
